A study of Arabidopsis thaliana with 17 samples.

Results

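A triple mutant of genotype npr1 sni1 brca2a, called the brca2a triple, and the genotype npr1 sni1, called the double, were compared in plants that had received water and no salicylic acid (SA), which gives the effect of the brca2a mutation before any SA is applied. The comparison took the 3 arrays titled as triple in water and the 3 arrays titled as double in water, 6 of the 17 arrays of the series. Both groups carried npr1 and sni1, so every level below belongs to plants mutant in both genes and no wild type was measured here. All plants were Arabidopsis thaliana, 3 weeks old, grown in soil, labelled as seedlings and sampled 16 hours after treatment. A further 6 arrays, of the brca2a triple and of the double after 0.5 mM SA, entered the fit and served as a second set of samples. Replicates came from independent biological experiments according to the series design. Affymetrix ATH1 probe set intensities are given throughout on the log2(intensity + 16) scale, which understates differences of dim probe sets.

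SA is the hormone with which plants switch on defence against pathogens that feed on living cells. NPR1 activates the genes that respond to SA, SNI1 is a negative regulator of them that also belongs to a complex for the maintenance of chromosomes, and BRCA2A takes part in the repair of DNA by homologous recombination. Mutations in recombination genes are known to suppress the sni1 phenotype, and basal defence genes are those that are expressed before a pathogen or SA arrives.

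Replicate 2 of the double stood apart from replicates 1 and 3 before any comparison was made. At 527 probe sets it lay at least 2-fold from the mean of replicates 1 and 3, higher at 222 and lower at 305, while replicates 1 and 3 were at least 2-fold apart at 0 probe sets. Across probe sets its correlation was 0.981 with replicate 1 and 0.980 with replicate 3, against 0.997 between those. Its correlations with the 3 SA arrays of the brca2a triple were higher, at 0.987 to 0.990. Across probe sets, its deviation from replicates 1 and 3 correlated at 0.62 with the SA effect in the brca2a triple, a quantity computed from other arrays. The brca2a triple arrays in water correlated at 0.995 to 0.996 with each other and at 0.994 to 0.997 with replicates 1 and 3 of the double. Results are therefore given with 12 arrays and with the 11 arrays that leave replicate 2 of the double out. Whether samples or labels were exchanged cannot be told from the files, and every array is named as labelled. Neither the 3′ to 5′ ratios of the control probe sets nor the array medians set it apart. The log2 ratio of the GAPDH control was 0.63 to 0.998 in the brca2a triple and 0.66 to 0.93 in the double. That of the Actin control was larger, at 3.36 to 3.675 in the brca2a triple and 3.27 to 3.55 in the double. Its 3′ signal was thus far above its 5′ signal on every water array. The medians of the 6 arrays lay between 58.5 and 61.4. RCA, which encodes the activator of the carbon-fixing enzyme of leaves, was at 13.74 to 13.85 in the brca2a triple and 13.77 to 13.84 in the double. The root gene PYK10, for a glucosidase, was at 9.20 to 9.54 in the brca2a triple and 8.89 to 9.55 in the double, and the root hair expansin EXPA7 was at 5.32 to 5.61 in the brca2a triple and 5.38 to 5.52 in the double.

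With 12 arrays, 17 of 22746 probe sets differed between the genotypes at an adjusted p under 0.05, 10 higher (0.044% of those tested) and 7 lower (0.0308%) in the brca2a triple, or 0.0747% in all. These are Benjamini-Hochberg values from limma over all probe sets. At an unadjusted p under 0.05 there were 2622. Without replicate 2 of the double, 107 probe sets passed (0.47%), 48 higher (0.211%) and 59 lower (0.259%), and 2641 had an unadjusted p under 0.05. The 17 were among the 107, with the same direction. Only 2 of the 17 and 6 of the 107 differed by at least 2-fold, and the median size of the log2 difference was 0.48 in both. The 3 arrays of the brca2a triple did not overlap with the 3 of the double in any of the 17, a separation seen in 13.9% of all probe sets. Of the 107, 55 were separated 3 against 3. The remainder were separated once replicate 2 of the double was left out, as were 25.5% of all probe sets. Of the 17 probe sets, 6 belonged to 1 gene by the platform annotation, and of the 107, 46 did.

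**Figure D1:**
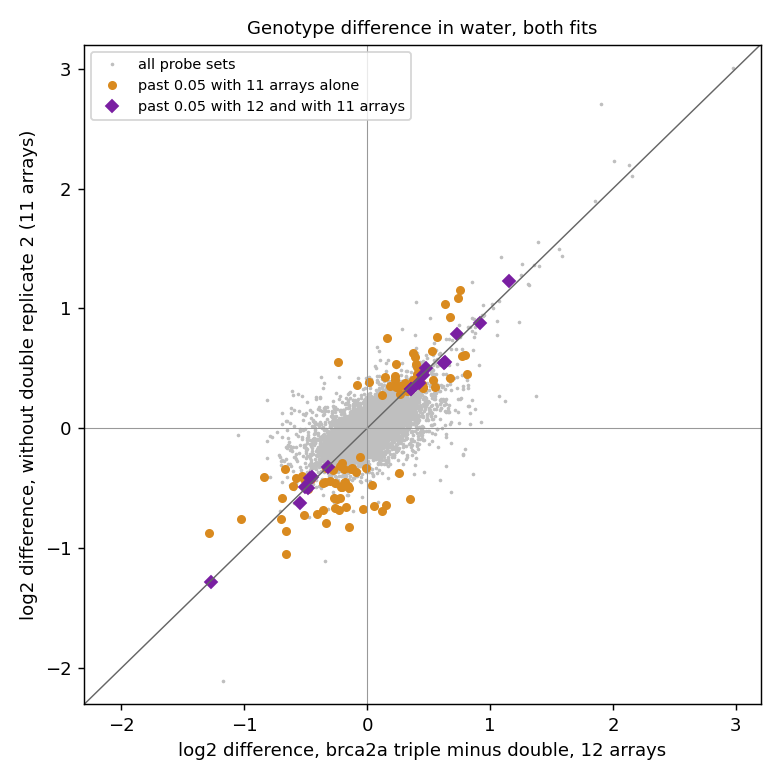
Each point is 1 probe set, with the log2 difference (brca2a triple minus double, water) from 12 arrays on the horizontal axis and from the 11 arrays without double replicate 2 on the vertical axis, and the line marks equality. The 17 purple diamonds lie near the line, whereas many of the orange points, which passed with 11 arrays alone, lie away from it, 8 of them with opposite signs on the axes.

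Among named genes past the threshold with 12 arrays, the largest difference lay in COR15B. COR15B and its neighbour COR15A are cold-regulated genes whose products are small chloroplast proteins that protect membranes during freezing. COR15B was at 7.72, 7.56 and 7.41 in the brca2a triple and at 6.31, 6.56 and 6.36 in the double. The arrays of the genotypes did not overlap, and replicate 2 of the double lay with its own group. Whole plants were extracted, so a change in the share of a cell type and a change in RNA per cell cannot be told apart. COR15B rose by 1.15 ± 0.11 on the log2 scale (SE of the fit, a 2.23-fold difference, adjusted p = 0.00817), and by 1.23 ± 0.11 without that array (adjusted p = 0.00269). COR15A was brighter and separated further, at 9.88, 9.50 and 9.65 in the brca2a triple and 7.36, 8.11 and 7.54 in the double. Its difference of 2.01 ± 0.41 (95% interval 1.09 to 2.92) did not pass the threshold (adjusted p = 0.165), nor did the 2.23 ± 0.43 without replicate 2 of the double (adjusted p = 0.0651). The spread in limma is pooled over the SA arrays as well, and after SA replicate 2 of the brca2a triple was at 10.87 against 9.06 and 9.04 in the other two. Without that 1 array, the water difference of COR15A had an adjusted p of 0.00353 with the 3 arrays of the double and 5.7e-05 without its replicate 2. With 11 arrays COR15A also passed with a pseudocount of 1 (adjusted p = 0.0157), the filter on dim probe sets (0.00719), the value table (0.0162) and the 2 water groups alone (0.0176). In all it passed in 1 of 21 alternative settings with 12 arrays and in 5 of 20 with 11. The SA array left out was named for its COR15A level. COR15B was higher after SA as well, by 0.90 ± 0.11 (adjusted p = 6.93e-04). The levels of the SA arrays do not enter the water difference, although both tests share the spread of the fit.

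LTI30 and LEA4-5 were uneven among the brca2a triple arrays and did not pass. LTI30, a dehydrin, was at 8.65, 5.14 and 8.47 in the brca2a triple and 5.20, 5.40 and 5.26 in the double. LEA4-5, a late embryogenesis abundant protein, was at 7.93, 5.51 and 7.79 in the brca2a triple and 5.72, 5.39 and 5.44 in the double. In both genes replicates 1 and 3 of the brca2a triple were high and replicate 2 was at the level of the double. The differences were 2.13 ± 1.14 for LTI30 (adjusted p = 0.499) and 1.56 ± 0.69 for LEA4-5 (adjusted p = 0.428), and neither passed. COR47, another dehydrin, was even, at 10.54, 10.36 and 10.70 in the brca2a triple and 10.06, 10.44 and 10.14 in the double, and its difference of 0.32 ± 0.20 did not pass either (adjusted p = 0.568). Of 10 measured genes with the symbols COR, LTI, LEA and DI21, a list drawn up after the data were seen, 1 passed the test in each fit, COR15B, against 0.0747% and 0.47% of all probe sets. The log2 differences of the 10 were all above 0, with a median of 0.37 with 12 arrays and 0.42 with 11, while the median over all probe sets was 0.02 and 0.01.

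**Figure D2:**
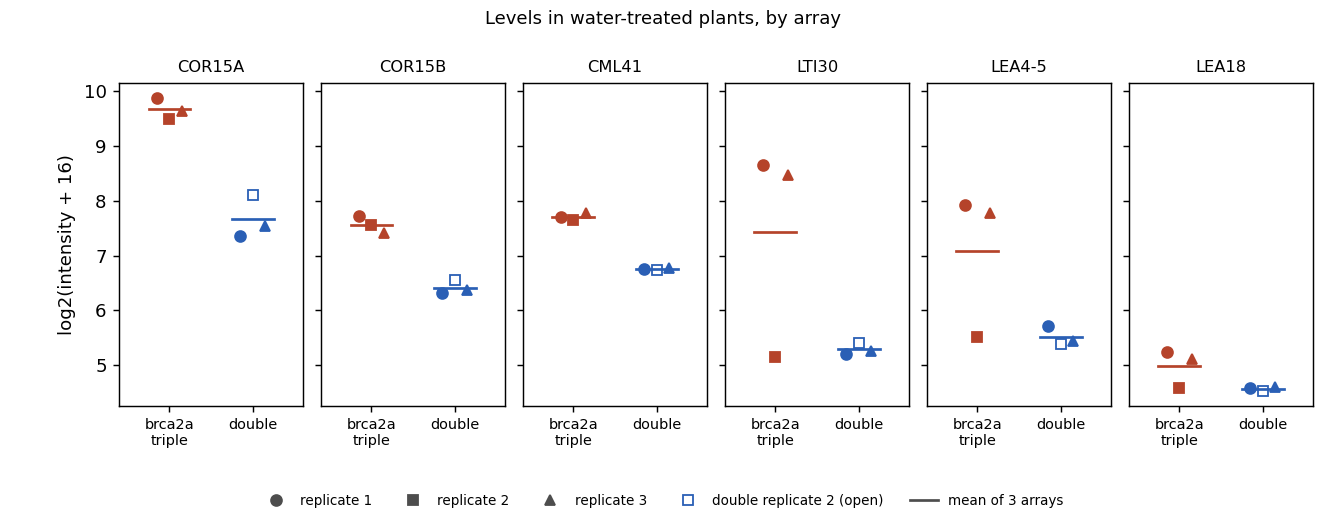
Points give log2(intensity + 16) on each water array for 6 genes, brca2a triple on the left and double on the right of each panel, with a line at the mean of 3 arrays and replicate 2 of the double as an open square. COR15A, COR15B and CML41 are separated in all 3 arrays of each genotype, whereas in LTI30, LEA4-5 and LEA18 replicate 2 of the brca2a triple sits at the level of the double.

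CML41, a calmodulin-like calcium sensor known from immune signalling at plasmodesmata, separated the genotypes with little spread and was singled out after its values were seen. It was at 7.71, 7.65 and 7.77 in the brca2a triple and at 6.76, 6.73 and 6.77 in the double. Every array of the brca2a triple was higher, and replicate 2 of the double did not depart from its group. The difference was 0.95 ± 0.27, a 1.94-fold difference, with an adjusted p of 0.274 in the 12-array fit and 0.255 without replicate 2 of the double, so it did not pass. After SA, replicate 2 of the brca2a triple was at 5.86 against 7.20 and 7.13 in the other two. With the 2 water groups fitted alone, CML41 was 1 of the 2 probe sets that passed (adjusted p = 0.0287), and without the SA array just named its adjusted p was 0.000307. That array was named for its CML41 level. CML41 passed in 2 of 21 alternative settings with 12 arrays and in 2 of 20 with 11.

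The other named genes that passed with 12 arrays differed by less than 2-fold. AT5G03350, listed here among SA-responsive genes, was at 9.93, 9.89 and 10.06 in the brca2a triple and 9.32, 9.16 and 9.51 in the double, a difference of 0.64 ± 0.09 (adjusted p = 0.037). AT3G56480 rose by 0.36 ± 0.05 and AT1G77600 by 0.36 ± 0.05. AT2G30620 fell by 0.45 ± 0.06 and AT4G30310 fell by 0.32 ± 0.04. None of these loci carries a symbol or role in the annotation used here. With 11 arrays the differences were 0.55 for AT5G03350, 0.33 for AT3G56480, 0.33 for AT1G77600, -0.41 for AT2G30620 and -0.32 for AT4G30310, and the 5 passed there too. The 5 were less stable than COR15B, which passed in 19 of 21 alternative settings with 12 arrays. AT5G03350 passed in 9, AT1G77600 in 7, AT4G30310 in 6, and AT2G30620 and AT3G56480 in 5 each. The difference furthest from 0 among the 17 belonged to a probe set with no single matched gene in the annotation. This probe set was at 5.86, 6.02 and 5.77 in the brca2a triple and 7.24, 7.13 and 7.09 in the double. It fell by 1.27 (adjusted p = 0.00211), and by 1.28 with 11 arrays.

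Leaving out replicate 2 of the double added genes in both directions. AT3G22240 passed in 20 of 20 alternative settings of the 11-array fit. It was at 11.80, 11.76 and 11.77 in the brca2a triple and at 10.94, 11.59 and 11.09 in the double, where the 11.59 belongs to replicate 2. Its difference was 0.76 ± 0.05 with 11 arrays (adjusted p = 5.88e-04), and 0.57 ± 0.13 with 12 (adjusted p = 0.191). AT5G05600 differed by 1.04 (adjusted p = 0.048), AT4G17470 by 0.925 and AT1G31690 by 0.61, the last at 1 of its 2 probe sets, since the dimmer one did not pass. BZIP61, a leucine zipper transcription factor, rose by 0.51 with 11 arrays. RRP41L, which resembles a subunit of the RNA-degrading exosome, rose by 0.41, and OCT4, an organic cation transporter, by 0.35. AT3G05730 rose by 0.48, AT1G62660 by 0.41 and AT5G20740 by 0.38. These genes kept their call less often than AT3G22240. AT1G62660 passed in 16 of 20 settings, AT1G31690 in 14, BZIP61 and OCT4 in 11, AT4G17470, RRP41L and AT5G20740 in 10, AT5G05600 in 8 and AT3G05730 in 7. For OCT4, replicate 2 of the double, at 6.06, was higher than the 3 arrays of the brca2a triple, at 5.91 to 5.95.

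Among genes that fell with 11 arrays, HIS1-3, a linker histone known to be induced by drought, was at 6.51, 6.38 and 6.30 in the brca2a triple and 7.04, 7.29 and 6.91 in the double. Its groups did not overlap with either number of arrays. HIS1-3 fell by 0.58 ± 0.10 (adjusted p = 0.0314) and stood at -0.69 ± 0.11 with 12 arrays (adjusted p = 0.052). AT1G64360 behaved alike, with -0.76 (adjusted p = 0.0243) with 11 arrays and -0.70 (adjusted p = 0.052) with 12. AT2G20870 fell by 0.87 ± 0.10, and replicate 2 of the double, at 8.33, lay farther from the brca2a triple than replicates 1 and 3, at 6.98 and 7.22. In AT3G19680 and other genes that fell, replicate 2 of the double lay below the brca2a triple instead. AT3G19680 was at 9.16, 9.45 and 9.36 in the brca2a triple and 10.003, 7.57 and 10.03 in the double. Its difference was -0.69 with 11 arrays and 0.12 with 12. AT1G24140, AT3G44450, AT1G72920, AT1G26790, AT1G67750, AT5G15950 and CPUORF47, with differences between -0.68 and -0.47, had the same arrangement. AT3G15720 differed by -0.72, with replicate 2 of the double at 5.94 beside 5.95 in the highest array of the brca2a triple. Of these genes that fell, AT2G20870, AT1G24140 and AT3G15720 passed in 18 of 20 settings, HIS1-3 in 10, AT3G19680 in 8 and AT5G15950 in 6, and the others named in 13 to 17, with 19 settings for AT1G26790. Over the 107 probe sets, replicate 2 of the double lay nearer to the brca2a triple mean than to its own group in 62, or 23 of the 48 higher and 39 of the 59 lower, and beyond the 3 brca2a triple arrays in 39. Over all probe sets it lay nearer to the brca2a triple in 47.4%. Among further named genes that fell with 11 arrays were TET8, a tetraspanin of extracellular vesicles, with -0.37, and ADPG1, a polygalacturonase, with -0.46. With 12 arrays TET8 differed by -0.09 (adjusted p = 0.884) and ADPG1 by -0.26 (adjusted p = 0.485). ADPG1 was near the floor of the scale, with replicate 2 of the double at 4.53, within the brca2a triple arrays. In TET8, AT1G11410, AT1G22160, AT1G68470, AT3G46540 and bZIP58, replicate 2 of the double lay below the 3 brca2a triple arrays. PWD, a kinase of starch breakdown, rose by 0.34 with 11 arrays and stood at 0.55 with 12 (adjusted p = 0.233). ADPG1 passed in 14 of 19 settings, TET8 in 5 of 20 and PWD in 3 of 20.

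Of the measured genes in the defence lists, 1 passed the test in water. Named genes outside the lists were not sorted by a role in defence. Of 160 genes in 7 defence lists, 20 had a probe set of their own in the annotation used here, and 1 of the 20 passed the test in each fit, AT5G03350, which was higher. This compares with 0.0747% and 0.47% of all probe sets. The median log2 difference of the 20 was -0.04 with 12 arrays and 0.00 (-0.0036) with 11, beside 0.02 and 0.01 over all probe sets, and 6 of the 20 had an unadjusted p under 0.05 in each fit, against 11.5% of all probe sets with 12 arrays and 11.6% with 11. The 3 arrays of each genotype did not overlap in 6 of the 20, against 13.9% of all probe sets. The median half-width of their 95% intervals was 0.22 with 12 arrays and 0.21 with 11. PR1, PR2, PR5, EDS1, PAD4, ICS1 and WRKY70, the most used markers of basal SA defence, had no probe set with 1 gene in that annotation and were not analysed here. The same holds for BRCA2A, NPR1 and SNI1, so the levels of the mutated genes could not be used to check the labels.

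Among SA-responsive genes, WRKY53 and GRX480 did not pass. WRKY53, a transcription factor of senescence and defence, was at 5.53, 5.45 and 5.21 in the brca2a triple and at 5.69, 5.69 and 5.66 in the double. The brca2a triple arrays were the lower ones without overlap, yet the difference of -0.28 ± 0.09 did not pass (adjusted p = 0.298). GRX480, a glutaredoxin that binds TGA transcription factors, was at 6.52, 5.84 and 6.43 in the brca2a triple and 5.62, 5.63 and 5.96 in the double. Here replicate 2 of the brca2a triple lay within the range of the double, and the difference of 0.52 ± 0.17 had an adjusted p of 0.310. UGT76B1, a glucosyltransferase that acts on SA, was at 5.72, 5.10 and 5.60 in the brca2a triple and 5.01, 4.79 and 5.03 in the double, where replicate 2 of the brca2a triple lay just above the highest array of the double (difference 0.53 ± 0.28, adjusted p = 0.491).

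The measured genes of SA signalling and immune perception lay close to the double, but some were near the floor of the scale. AT3G48080 was at 4.55 to 4.93 and EFR at 4.66 to 5.05 on the water arrays, where differences are understated. SAG101, a partner of EDS1, was at 5.16, 5.28 and 5.28 in the brca2a triple and 5.21, 5.44 and 5.28 in the double, and the 95% interval of its difference ran from -0.21 to 0.07. In AT3G48080 the difference was -0.01 with 12 arrays and 0.10 with 11. The 6 measured genes of pattern-triggered immunity had differences between -0.36 and 0.04 with 12 arrays and between -0.15 and 0.01 with 11, and none passed. They include EFR, the receptor for bacterial elongation factor Tu, BIK1, a kinase downstream of such receptors, WRKY22, and the ubiquitin ligases PUB22, PUB23 and PUB24, which dampen this response. The -0.36 belongs to BIK1, where replicate 2 of the double was at 7.53 against 6.66 and 6.58 in replicates 1 and 3 and 6.44 to 6.74 in the brca2a triple. Without that array the difference of BIK1 was -0.06. SGT1A, a co-chaperone of immune receptors, differed by 0.10 with 12 arrays and by -0.0033 with 11.

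In the jasmonate and ethylene list 5 genes were measured and none passed. The defensin PDF1.2 was at 4.89, 4.90 and 4.72 in the brca2a triple and 4.82, 4.74 and 4.90 in the double, near the floor of the scale, with a difference of 0.02 ± 0.06. EIN3, the transcription factor at the end of ethylene signalling, differed by -0.28 with 12 arrays and by -0.06 with 11. The thionin THI2.1 differed by -0.24 with 12 arrays and by -0.01 with 11. In both genes replicate 2 of the double was the highest of the 6 arrays. Of glucosinolate synthesis, UGT74B1, a glucosyltransferase of the core pathway, was at 9.59, 9.52 and 9.53 in the brca2a triple and 9.26, 8.03 and 9.15 in the double. It differed by 0.73 ± 0.25 with 12 arrays (adjusted p = 0.333) and 0.34 ± 0.07 with 11 (adjusted p = 0.0894, and 0.0374 without replicate 2 of the brca2a triple after SA). BCAT4, which starts the lengthening of methionine for these compounds, was at 11.35, 10.99 and 11.12 in the brca2a triple and 10.71, 10.66 and 10.77 in the double. Its arrays did not overlap and its difference of 0.44 ± 0.11 did not pass (adjusted p = 0.224). When families chosen by symbol after the data were seen (WRKY, PUB, CML, PDF and LCR, JAL, CYP71B) were added, 73 genes were measured and AT5G03350 was still the 1 that passed in each fit.

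**Figure D3:**
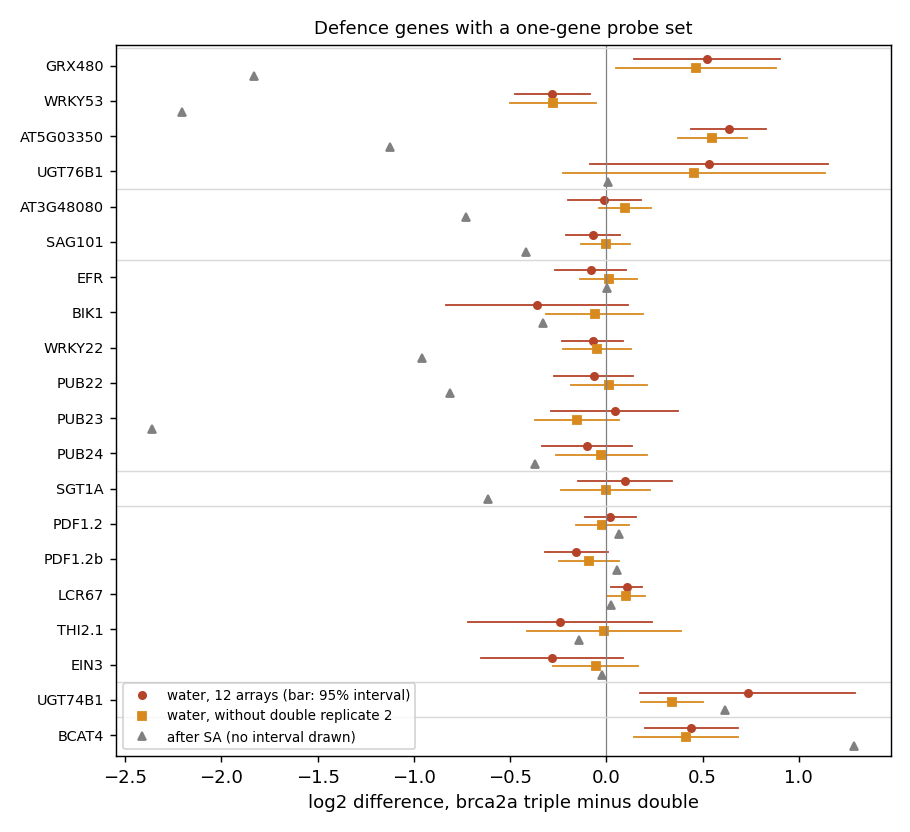
For the 20 measured defence genes, grouped by list, circles give the log2 difference (brca2a triple minus double) in water with 12 arrays, squares with 11 arrays, each with its 95% interval, and triangles give the difference after SA. The water values lie between -0.36 and 0.73. After SA, 9 of the 20 passed the test as lower in the brca2a triple, against 652 of all 22746 probe sets.

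The SA arrays, none of which is a water array, showed what the same genes did after treatment. After SA, 970 probe sets (4.26%) differed between the brca2a triple and the double, against 17 and 107 in water, and the spread of the fit was shared. Of the 17, 13 had the same sign after SA and 7 passed there, 5 with the same sign and 2 with the opposite one. Of the 107, 77 had the same sign and 30 passed, 25 with the same sign and 5 with the opposite one. Over all probe sets the share with the same sign was 52.9% with 12 arrays and 50.6% with 11. Among the 46 named genes that passed with 11 arrays, 12 passed after SA. COR15B, AT1G62660 and AT4G17470 were higher both times. HIS1-3, AT1G64360, AT2G20870, AT1G24140, AT1G72920, AT1G72940 and TET8 were lower both times. AT5G03350 and AT3G22240 were higher in water and lower after SA. AT1G72920 and AT1G72940 lie 2 genes apart in the annotation.

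The difference of the genotype effect between water and SA was tested directly and passed at 442 probe sets (1.94%), 7 of the 17 and 21 of the 107 among them. Those had been chosen by their water difference, which is one part of the quantity tested, so nothing is read from these counts. AT5G03350 differed by 0.64 in water and by -1.13 after SA. AT3G22240 differed by 0.57 in water with 12 arrays and by -0.86 after SA. Among defence genes that did not pass in water, several were lower in the brca2a triple after SA. WRKY53 differed by -2.21 after SA, GRX480 by -1.83 and PUB23 by -2.36. Of the 20 defence genes, 9 were lower and 1, BCAT4, was higher after SA, against 652 lower and 318 higher of all 22746 probe sets. These lists, and the early stress list that follows, were drawn up with earlier results of these data known. The 7 measured genes of an early stress list did not pass in water and were all lower after SA. Among them were the zinc finger repressor STZ and the calcium sensor CML38. The median difference of the 7 was -2.60 after SA. In water it was 0.29 with 12 arrays, where 6 lay above 0, and 0.11 with 11, where 4 did. In CML38 and AT1G15010, replicate 2 of the brca2a triple was the lowest of its water group. Without it, and without replicate 2 of the double, CML38 differed by 0.65 (adjusted p = 0.0444) and AT1G15010 by 0.84 (adjusted p = 0.0217) in water. The brca2a triple array left out was named for its low levels of these same genes. Each gene passed in 1 of 20 alternative settings with 11 arrays and in 0 of 21 with 12, so no difference in water is read from these values.

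**Figure D4:**
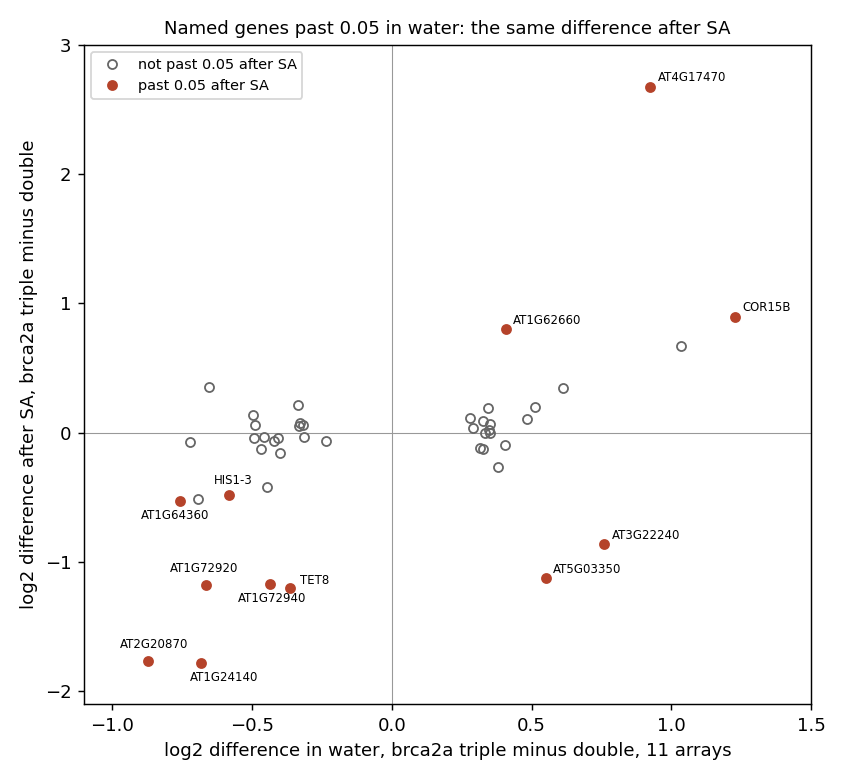
Each point is 1 of the named probe sets that passed in water, with its log2 difference in water from 11 arrays (brca2a triple minus double) on the horizontal axis and after SA on the vertical axis, filled where it also passed after SA. COR15B, AT1G62660 and AT4G17470 lie above 0 on both axes, 7 filled points lie below 0 on both, and AT5G03350 and AT3G22240 lie above 0 in water and below 0 after SA.

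The counts depended on single arrays. From 12 arrays, leaving out replicate 2 of the double raised the count of 17 to 107, and leaving out its replicate 3 lowered it to 1. From the 11 arrays, leaving out replicate 2 of the brca2a triple in water gave 160 and leaving out replicate 3 of the double gave 6. In the last case the double in water had 1 array, which was assumed to vary like the other groups.

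**Figure D5:**
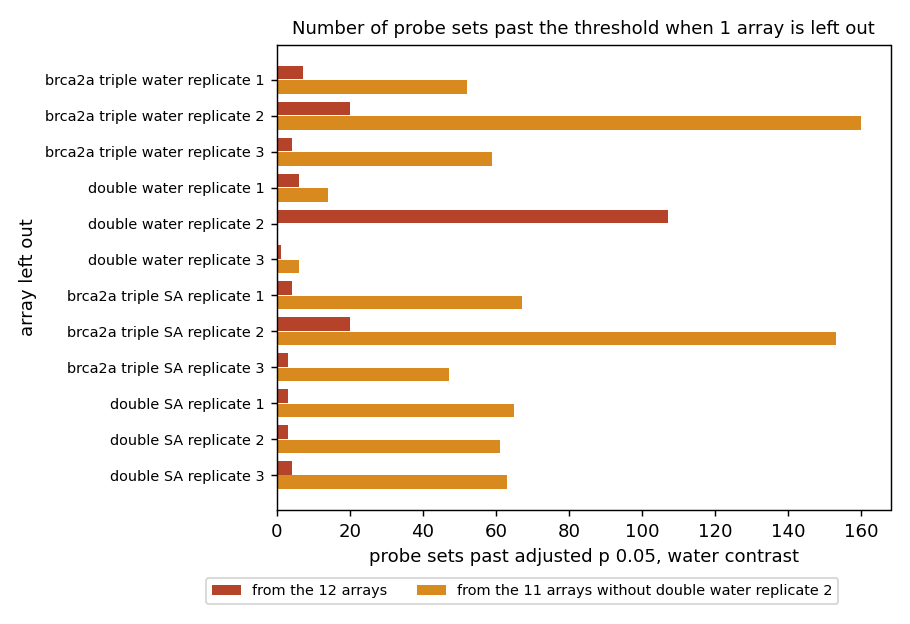
Bars give the number of probe sets past the threshold in the water comparison when the array named on the vertical axis is left out, from the 12 arrays (red) and from the 11 arrays without double water replicate 2 (orange, with no bar for that array). The red bars run from 1 to 107 and the orange bars from 6 to 160.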

How the data were processed

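Whole plants were profiled on Affymetrix ATH1 arrays. The authors deposited linear probe set intensities of 12 arrays in 1 table. Per the submitters' processing notes they were made with PLIER (version: not given in the sources used here). The intensities ranged from 4.04 to 14773 on the water arrays, whose log2 medians spanned 0.07, so they had been normalized to each other. A deposited value table for the whole series gives log2 values from which the 12-array median of each probe set was subtracted, to within 1.98e-06, with column medians between -0.0171 and 0.0287 on the water arrays. It served as an alternative. Of the tables, 10 columns of other samples (the ssn2 triple) were not used.

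After adding 16 and taking log2, 4 group means were fitted with lmFit and eBayes (limma 3.58.1, R 4.3.3) over 22746 of 22810 probe sets (64 controls left out), with 12 arrays and with 11. Tests were two-sided with Benjamini-Hochberg adjustment at 0.05, and errors are SE of the fit. The script was tested on simulated data. Arrays have no read depth, and their number limits the precision.

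Genes come from the platform annotation through Entrez IDs to RefSeq (TAIR10.1): 13436 probe sets had 1 matched gene (13286 loci, of which 1535 have a symbol), and 9310 did not. Of 320 genes in 21 lists, 46 were measured, counting a gene in each list that holds it, by the brightest probe set. The members and lists were chosen with earlier results of these data known. Named genes are those past the threshold with 12 arrays, the 12 largest differences in each direction with 11 arrays and separated groups, list members that passed, the 2 largest differences of each list and a fixed set of defence genes. Alternatives were other pseudocounts (1, 64), a filter (32 on 3 arrays), median centring, quantile normalization, the value table, the 2 water groups alone, array weights, a replicate block and leaving out each array. The labels do not say whether equal replicate numbers mark the same experiment, and the main fit had no block. Deviations of same-numbered arrays of the genotypes correlated at 0.0123, 0.0593 and 0.0473 in water and at 0.157, 0.0014 and -0.0254 after SA. In water these include replicate 2 of the double, which stood apart, so an absence of pairing cannot be read from them. Promoter and protein sequences were not used here.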

Additional observations from a re-analysis of the deposited data

Results flagged for a closer look

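Of 58 named genes, 15 had a genotype effect that differed between water and SA by the interaction test of limma at an adjusted p under 0.05 with 12 arrays, and the 15 passed it with 11 arrays as well. Over all probe sets 442 (1.94%) passed with 12 arrays, but many of the 58 were chosen by their water difference, which is one part of the quantity tested, so the share is not comparable. Values are the log2 difference (brca2a triple minus double) in water minus that after SA. For 11 genes the value was above 0. CML38 had 3.26, AT1G15010 2.40, GRX480 2.35, WRKY53 1.92, AT5G03350 1.76, AT3G22240 1.43, AT3G48080 0.72, ATERDJ3B, an endoplasmic reticulum co-chaperone, 0.61, AT5G20740 0.58, AT3G56480 0.49 and RRP41L 0.47. For 4 genes the value was below 0, with -2.002 in AT4G17470, -0.84 in BCAT4, -0.41 in AT2G30620 and -0.38 in AT4G30310. In AT4G17470 and BCAT4 the difference was above 0 both times and larger after SA, at 2.67 after SA and 0.67 in water for AT4G17470 and at 1.29 after SA and 0.44 in water for BCAT4.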

How the results depend on the processing

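The count of 17 with 12 arrays moved to 11 with the filter on dim probe sets, 11 with the series value table, 2 with the 2 water groups alone, 27 with array weights and 3 with a replicate block, and to 14 to 23 under the other scalings and pseudocounts. The count of 107 with 11 arrays moved to 9 with the 2 water groups alone and 45 with a replicate block, of which 38 were among the 107, and lay between 75 and 131 otherwise. Leaving out each array in turn gave 1 to 107 from the 12 arrays and 6 to 160 from the 11. From the 12 arrays, leaving out replicate 1 of the double gave 6, and leaving out replicates 1 and 3 of the brca2a triple gave 7 and 4. Leaving out an SA array gave 3 or 4, except 20 without replicate 2 of the brca2a triple, which was also the count without its water replicate 2. From the 11 arrays, leaving out replicate 1 of the double gave 14, replicates 1 and 3 of the brca2a triple 52 and 59, and an SA array 47 to 67, except 153 without replicate 2 of the brca2a triple. The split of 10 higher and 7 lower became 10 and 13 with median centring and 8 and 11 with quantile normalization. With 11 arrays the split of 48 and 59 became 49 and 78 with median centring and 47 and 60 with quantile normalization. COR15B did not pass with 12 arrays in the 2 water groups alone (adjusted p = 0.142) and without replicate 3 of the double (adjusted p = 0.0516). The causes were not tested. The deviations of same-numbered arrays correlated at 0.157 at most (replicate 1 after SA) and not above 0.1 in the other pairs. These values do not settle whether equal numbers mark the same experiment, and the replicate block rests on the numbers alone. The genes with a name that passed, 6 with 12 arrays and 46 with 11, were recomputed under each alternative, and none of them changed sign within its fit. Genes near 0 that did not pass in water did, and their log2 differences follow. With 12 arrays the values were EXPA7 -0.024, PDF1.2 -0.011 and RCA 0 under quantile normalization, and AT3G48080 0.0024 under the series value table, and RAD51B 0.027, EXPA7 -0.014, PYK10 -0.076, SGT1A -0.018 and AT3G48080 0.056 under array weights. Leaving out each array in turn from the 12 arrays gave CRT1b -0.12 to 0.045, GI -0.015 to 0.36, RAD51B -0.023 to 0.023, EXPA7 -0.063 to 0.083, PYK10 -0.093 to 0.24, SGT1A -0.0033 to 0.20, AT3G48080 -0.10 to 0.10, ATERDJ3B -0.0055 to 0.10, DFR -0.0084 to 0.22, PDF1.2 -0.021 to 0.078 and RCA -0.040 to 0.016. With 11 arrays the values were RAD51B -0.015 and RCA 0 under quantile normalization, and EXPA7 0.0042 under array weights, and PUB24 0.044, EIN3 0.0021, SGT1A 0.046 and AT4G34270 0.032 under a replicate block. Leaving out each array in turn from the 11 arrays gave AT2G28390 -0.063 to 0.018, CRT1b -0.18 to 0.0016, GI -0.14 to 0.13, RAD51B -0.0019 to 0.045, THI2.1 -0.10 to 0.10, EXPA7 -0.086 to 0.069, PYK10 -0.21 to 0.027, PUB24 -0.077 to 0.0052, SGT1A -0.12 to 0.11, AT4G34270 -0.064 to 0.052, PDF1.2 -0.057 to 0.036 and SAG101 -0.041 to 0.037.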

Other observations

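Replicate 2 of the brca2a triple departed from replicates 1 and 3 in one direction in water. At 35 probe sets it lay at least 2-fold below both, and at 0 probe sets at least 2-fold above both. None of the 35 passed the test between genotypes in either fit. After SA, replicate 2 of the same genotype lay at least 2-fold above replicates 1 and 3 at 55 probe sets and below them at 3, and 25 of the 35 were among the 55. LTI30 was at 8.65, 5.14 and 8.47 in the brca2a triple in water, and at 5.55, 9.83 and 5.46 after SA. LEA4-5, AT3G02480, AT3G17520, AT1G09500 and AT1G05340 were among the 9 named genes of the 35. AT3G02480 was at 8.88, 5.51 and 8.58 in the brca2a triple in water and at 5.05, 10.04 and 5.14 after SA. In the double in water, the same gene was at 4.87 and 5.05 in replicates 1 and 3 and at 7.36 in replicate 2. What sets these arrays apart was not tested, and whether samples or labels were exchanged cannot be told from the files.

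Of 9 listed iron deficiency genes 2 were measured, and both were highest in replicate 2 within each genotype in water, which was not tested. BHLH101, a transcription factor of the iron deficiency response, was at 6.45, 7.22 and 6.54 in the brca2a triple and at 5.94, 7.12 and 5.97 in the double. AT1G47400 was at 8.35, 8.76 and 8.09 in the brca2a triple and at 7.54, 8.69 and 7.43 in the double. Their differences were 0.39 and 0.51 with 12 arrays and 0.78 and 0.92 with 11, and neither passed. With 11 arrays both passed under the filter on dim probe sets (adjusted p = 0.0431 for BHLH101 and 0.0127 for AT1G47400). AT1G47400 also passed with a pseudocount of 1 (0.0369), the value table (0.0391), a replicate block (0.0269) and without replicate 2 of the brca2a triple after SA (0.0398). Of 13 glutathione transferases, none passed in water. GSTU20 was at 11.55, 11.23 and 11.38 in the brca2a triple and 11.09, 11.03 and 11.05 in the double, a difference of 0.33 ± 0.08 (adjusted p = 0.224) in water and 0.97 after SA, where it passed.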
